A study of Mus musculus with 22 samples.

Results

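Kidney B cells of UPEC-challenged mice were compared between the tissue and the blood vessels of the same organ. The 10 libraries described here, of 22 in the series, are the extravascular and the intravascular library of each of 5 mice whose labels name UPEC as the treatment, and each mouse forms a pair. UPEC is uropathogenic Escherichia coli, a frequent cause of infection of the bladder and kidney. All mice were wild-type (WT) C57BL/6 females aged 8 to 10 weeks per the design text deposited with the series. The challenged mice received strain UTI89 into the bladder 2 times, the 6 control mice received PBS by the same route, and kidneys were taken on day 56. An antibody to CD45 was given into a vein shortly before death, and live B cells were sorted as unlabelled (extravascular) or labelled (intravascular). The kidneys were not perfused, so a cell is called extravascular from this label alone. Every retained sequence is a rearranged immunoglobulin heavy chain transcript, which only the B cell lineage makes, and no other cell marker can be read from such a library.

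A heavy chain gene is assembled from 1 V, 1 D and 1 J segment. The enzyme TdT adds N nucleotides, which no template encodes, at the joints. B-1 cells, a self-renewing lineage formed largely in fetal life when TdT is low, are known for joints with few N nucleotides and for the segments Ighv11-2 and Ighv12-3, whose antibodies bind phosphatidylcholine. Mature naive B cells carry IgM and IgD together through alternative splicing of Ighm and Ighd, and class switching replaces these constant regions by Ighg, Ighe or Igha. A clonotype is defined here as 1 nucleotide sequence of the junction (the CDR3 with the conserved codon on each side), 1 V segment and 1 J segment.

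The 10 libraries held 6231 sequences from 40957 reads and 2882 distinct clonotypes. Extravascular libraries had 244 to 1102 sequences from 936 to 8039 reads, and intravascular libraries 347 to 938 sequences from 1504 to 6269 reads. The extravascular library of mouse 1 was the smallest and stood apart from the other 4 extravascular libraries in several measures below, and values without it are given beside several of these results. A V-REGION shorter than 200 nt was found in 6.56% to 15.8% of extravascular and 15.1% to 20.7% of intravascular sequences, and V names of such sequences rest on a short stretch. The share of a segment, isotype or clonotype is the percentage of a library's sequences, each counted once. Differences within mice were tested with the exact two-sided Wilcoxon signed-rank test, whose smallest possible p with 5 mice is 0.0625, so no comparison of this kind could pass the threshold of 0.05. The 95% Wilson intervals given for single libraries treat sequences as independent draws, which members of 1 clonotype are not.

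The junctions of the most frequent clonotype in each library are shown first because they carry the contrast in clone size and in N additions. They are written 5′ to 3′, with N nucleotides in capitals as the deposited annotation assigns them and all other bases in lower case.
Extravascular mouse 1, Ighv11-2 Ighd2-1 Ighj1: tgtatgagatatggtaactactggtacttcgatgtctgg
Extravascular mouse 2, Ighv12-3 Ighd2-3 Ighj3: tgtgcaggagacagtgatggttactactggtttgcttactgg
Extravascular mouse 3, Ighv3-8 Ighd1-1 Ighj2: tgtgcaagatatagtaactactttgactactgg
Extravascular mouse 4, Ighv3-8 Ighd1-1 Ighj2: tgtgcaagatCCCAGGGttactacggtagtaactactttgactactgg
Extravascular mouse 5, Ighv12-3 Ighd2-3 Ighj1: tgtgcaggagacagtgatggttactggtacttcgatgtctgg
Intravascular mouse 1, Ighv12-3 Ighd2-3 Ighj1: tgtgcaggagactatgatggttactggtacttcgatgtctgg
Intravascular mouse 2, Ighv3-8 Ighd1-1 Ighj4: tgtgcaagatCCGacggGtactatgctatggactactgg
Intravascular mouse 3, Ighv3-8 Ighd2-2 Ighj2: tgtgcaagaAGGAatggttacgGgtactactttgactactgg
Intravascular mouse 4, Ighv3-8 Ighd2-1 Ighj2: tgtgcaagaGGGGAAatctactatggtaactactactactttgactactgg
Intravascular mouse 5, Ighv12-3 Ighd2-3 Ighj2: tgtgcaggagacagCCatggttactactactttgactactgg

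Extravascular clonotypes reached larger shares of their library than intravascular ones in 4 of 5 mice, and intravascular mouse 4 was the exception. The largest, the Ighv12-3 clonotype of extravascular mouse 2, made up 196 of 686 sequences, or 28.6% (95% Wilson interval 25.3% to 32.1%). Its 196 sequences had 170 distinct V regions, and it was not found in the intravascular library of that mouse. The Ighv3-8 clonotype of extravascular mouse 3 made up 138 of 1102 sequences, or 12.5% (95% Wilson interval 10.7% to 14.6%). The leading extravascular clonotypes of mice 4 and 5 made up 5.11% and 5.85%, and that of mouse 1 had 5 of 244 sequences, or 2.05%. In intravascular libraries the leading clonotype made up 1.95%, 1.15%, 2.93%, 10.4% and 2.65% in mice 1 to 5. Extravascular libraries averaged 10.8% ± 10.6 and intravascular ones 3.83% ± 3.76 (SD, n = 5 each; exact signed-rank test, p = 0.3125). Without mouse 2 the difference was 1.89 instead of 6.99 points, and without mouse 4 the intravascular mean was 2.17%. Of the 5 leading extravascular junctions 4 had no N nucleotide, against 1 of the 5 intravascular ones.

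Fewer distinct clonotypes were expected in 244 extravascular sequences, the depth of the smallest library, than in 244 intravascular ones. The number was 201, 81.1, 92.3, 140 and 113 in extravascular mice 1 to 5 and 219, 216, 181, 133 and 192 in the intravascular libraries. It was lower in the tissue of 4 of 5 mice, the groups overlapped, and mouse 4 had similar numbers in both compartments. The means were 126 ± 47.8 (SD, n = 5) and 188 ± 34.7 (SD, n = 5), a difference of -62.7 clonotypes (exact signed-rank test, p = 0.125). In PBS mice the means were 81.9 ± 14.1 (SD, n = 6) and 183 ± 32.1 (SD, n = 6), lower in the tissue of 6 of 6 mice. The difference between compartments did not pass the test of a change between UPEC and PBS mice (38.7 clonotypes smaller after UPEC, exact permutation test, p = 0.197), nor with any 1 UPEC mouse left out, from 21.5 clonotypes without mouse 4 (exact permutation test, p = 0.438) to 56.9 without mouse 2 (exact permutation test, p = 0.0619).

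The 10 most frequent clonotypes together held 11.9%, 68.8%, 49.7%, 35.0% and 40.4% of the extravascular sequences of mice 1 to 5. In the intravascular libraries they held 9.75%, 7.78%, 19.3%, 38.6% and 16.7%. Extravascular mice 2, 3 and 5 lay above every intravascular library, while mouse 1 was low in both compartments and the vessels of mouse 4 exceeded its tissue. The means were 41.2% ± 20.8 and 18.4% ± 12.2 (SD, n = 5 each), with a larger share in the tissue of 4 mice (p = 0.1875 by the exact signed-rank test). Without mouse 2 the difference was 13.1 instead of 22.7 points.

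**Figure D1:**
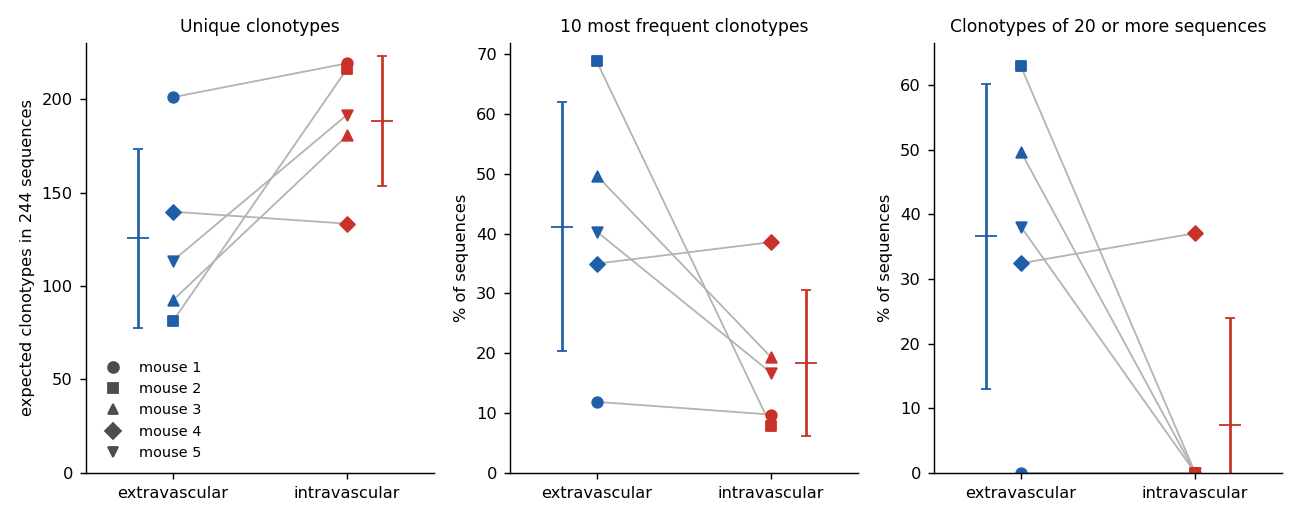
Clonal make-up of the 10 libraries of challenged mice, with extravascular values in blue, intravascular values in red and a grey line joining the 2 libraries of a mouse. The panels show the clonotypes expected in 244 sequences, the percentage of sequences in the 10 most frequent clonotypes and the percentage in clonotypes of 20 or more sequences, each with the mean ± SD beside the points (SD bars are drawn only down to 0), and mice 2, 3 and 5 separate widely between compartments while mice 1 and 4 do not.

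Clonotypes of 20 or more sequences, called expanded here, numbered 34 in the extravascular libraries (0, 6, 10, 9 and 9 in mice 1 to 5) and 9 in the intravascular libraries, all of them in mouse 4. They held 0%, 63.0%, 49.7%, 32.4% and 38.1% of extravascular sequences and 37.1% of those of intravascular mouse 4. The number 20 is a larger share of a small library than of a large one, and the chance that 2 sequences drawn from a library belong to 1 clonotype, which needs no such number, was 3.73% ± 4.23 in extravascular and 0.645% ± 0.865 in intravascular libraries (SD, n = 5 each), with the tissue above the vessels in 4 mice (p = 0.1875 by the exact signed-rank test). Without mouse 2 the difference was 1.17 instead of 3.08 points, and without mouse 4 the intravascular mean was 0.265%. Of the 34 expanded extravascular clonotypes 20 used a segment of the Ighv3 family, 9 of them Ighv3-8. A further 10 used Ighv12-3, 1 used Ighv11-2 and 3 used the Ighv1 family. Of the 1048 extravascular clonotypes with a single sequence 137 used Ighv11-2 or Ighv12-3, and over all extravascular clonotypes the Ighv3 family averaged 30.2%. Of the 34, 8 had no N nucleotide, and the median was 5 (range 0 to 15). Their junctions were 33 to 54 nt long with a median of 42 nt. The 9 expanded clonotypes of intravascular mouse 4 comprised 5 of the Ighv3 family, 3 of Ighv12-3 and 1 of Ighv11-2.

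Most clonotypes were seen in a single sequence. Single-sequence clonotypes were 74.1% to 86.2% of the clonotypes in extravascular and 81.3% to 89.4% in intravascular libraries. Ighd was found in 13.9% to 36.5% of the single-sequence extravascular clonotypes and in at least 1 sequence of 6 of the 34 expanded ones. Their mean N length lay between 5.19 and 6.34 nt across the 5 extravascular libraries, and that of expanded clonotypes between 3.60 and 6.56 nt across the 4 libraries that had any. Expanded clonotypes had the lower mean in 3 of these 4 libraries.

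The V segments that differed most in mean share between compartments were Ighv12-3, higher in the tissue on average, and Ighv3-8 and Ighv3-1 of the Ighv3 family, lower on average. The Ighv3 family made up 13.1%, 46.9%, 39.2%, 63.9% and 40.1% of extravascular sequences in mice 1 to 5 and 62.1%, 65.1%, 62.4%, 53.7% and 55.4% of intravascular ones. Its share was lower in the tissue of 4 of 5 mice, with mouse 4 the other way. The means were 40.7% ± 18.3 and 59.8% ± 4.91 (SD, n = 5 each), a difference of -19.1 percentage points (exact signed-rank test, p = 0.125) and of -11.6 without mouse 1. PBS mice averaged 55.9% and 62.4%, and the difference between compartments in UPEC mice minus that in PBS mice was -12.6 points (exact permutation test, p = 0.219). With each mouse left out this ranged from -19.9 points without mouse 4 (exact permutation test, p = 0.00952) to -5.13 points without mouse 1 (exact permutation test, p = 0.495), and it did not pass without mouse 2, 3 or 5. Ighv3-8, on chromosome 12 of GRCm38.p6 from 114322376 to 114322666 in the RefSeq annotation, was the most used segment in all. Its share was 3.69%, 22.6%, 24.0%, 18.6% and 15.4% in the tissue and 24.5%, 26.2%, 29.1%, 29.4% and 21.0% in the vessels, lower in the tissue of each of the 5 mice although the ranges overlapped. Ighv3-1, of the same family, had means of 12.2% ± 10.3 and 18.5% ± 4.97 (SD, n = 5 each) and was lower in 4 of 5 mice. Extravascular mouse 4 was the exception with 30.4%, and without it the means were 7.67% and 20.5%. Ighv3-6 averaged 7.70% and 9.60%, lower in 3 of 5 mice, and Ighv3-5 averaged 2.92% and 3.12%.

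Ighv12-3, on chromosome 12 of GRCm38.p6 from 114366526 to 114366819, was used by 7.79%, 35.1%, 44.8%, 6.86% and 20.0% of extravascular sequences in mice 1 to 5. In the vessels its share was 8.91%, 4.61%, 3.62%, 14.4% and 7.69%. Mice 2, 3 and 5 had more in the tissue than any intravascular library, and mice 1 and 4 had less in the tissue than in their vessels. The means were 22.9% ± 16.8 and 7.85% ± 4.25 (SD, n = 5 each; exact signed-rank test, p = 0.3125). Without mouse 3 the difference was 8.54 instead of 15.1 points. In mouse 2 the largest clonotype alone supplied 196 of the 241 extravascular Ighv12-3 sequences. Ighv11-2, from 114048241 to 114048704 on the same chromosome, was used by 4.51%, 1.17%, 3.18%, 5.11% and 2.69% of extravascular and 0.836%, 0.865%, 0.517%, 5.97% and 2.12% of intravascular sequences. It was higher in the tissue of 4 of 5 mice, and the groups overlapped.

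Ighv11-2 and Ighv12-3 together reached 26.3% ± 15.7 in the tissue and 9.91% ± 6.37 in the vessels (SD, n = 5 each), with the tissue higher in 4 of 5 mice and mouse 4 lower (exact signed-rank test, p = 0.1875). Without the pairing by mouse the same difference of 16.3 percentage points gave p = 0.0317 (exact Mann-Whitney U test), or 0.423 at the least after adjustment over the 40 measures compared. Without mouse 3 the difference was 9.46 points. Counting each clonotype once gave 15.4% ± 10.6 and 6.48% ± 2.48 (SD, n = 5 each), again higher in 4 of 5 mice, with a difference of 8.92 points, or 3.68 without mouse 3. In PBS mice the pair of segments made up 25.5% ± 14.9 and 4.68% ± 1.82 (SD, n = 6 each), and the difference between compartments did not pass the test of a change with UPEC (-4.50 percentage points, exact permutation test, p = 0.675). With 1 UPEC mouse left out this ranged from -11.4 points without mouse 3 (exact permutation test, p = 0.262) to 1.68 without mouse 4 (exact permutation test, p = 0.857).

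No V segment passed the test across segments. Of 71 V names, 17 had at least 10 sequences in at least 3 libraries, and limma with the mouse as a block called 0 of the 17 (0.0% of those tested) at an adjusted p below 0.05. The 3 at an unadjusted p below 0.05 were Ighv1s22, Ighv1-48 and Ighv15-2. Of these 17, 3 were lower in the tissue of 5 of 5 mice (17.6% of those tested), and 0 were higher in 5 of 5 (0.0%). The 3 were Ighv3-8, Ighv1s22 and Ighv1-48. The last pair of these also had extravascular ranges that lay wholly below the intravascular ranges, as did 2 of the 17 segments in all (11.8%). Ighv1-48 met the filter only with its intravascular counts included, which favours a lower tissue value. Its direction and range therefore support no conclusion. Ighv1s22 was at 0%, 1.46%, 0.817%, 2.56% and 1.99% in the tissue and 7.80%, 6.34%, 7.76%, 2.99% and 4.24% in the vessels. The 0 of 244 sequences in extravascular mouse 1 allows a share of up to 1.23%, taking 3 counts as the limit of a count of 0. limma gave Ighv1s22 a difference of -2.62 on the log2 scale of shares (SE 0.97, adjusted p = 0.158). Ighv1-48 averaged 0.665% ± 0.523 and 2.49% ± 0.356 (SD, n = 5 each). All 194 Ighv1s22 and all 89 Ighv1-48 sequences had V regions of at most 57 nt, they formed 188 and 88 clonotypes, and Ighm was found in 99.5% and 100% of them. What these names denote was not tested, and V regions under 200 nt were less frequent in the tissue of 4 of 5 mice, mouse 5 being the exception.

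Ighv15-2 averaged 0.998% ± 1.01 in the tissue and 3.69% ± 2.45 in the vessels (SD, n = 5 each), lower in 4 of 5 mice (limma, adjusted p = 0.158). Without mouse 5 its extravascular mean was 0.605%. Its difference ranged from -3.55 points without mouse 4 to -1.75 without mouse 2. Ighv5-17, Ighv13-2 and Ighv3-3 averaged between 0.853% and 2.53% in either compartment. Ighv3-3 was at 0%, 0%, 0%, 0.404% and 3.86% in the tissue and 4.74%, 5.48%, 0.172%, 0% and 0.531% in the vessels, so single mice carry its means. The difference for Ighv13-2 was -1.81 points without mouse 1 and 0.0339 without mouse 5. Ighv5-4 averaged 2.96% and 1.25%, with 9.84% in extravascular mouse 1, and Ighv5-6 averaged 2.00% and 1.35%, with 5.74% in the same library, and without mouse 1 both were lower in the tissue on average (1.24% and 1.35% for Ighv5-4, 1.06% and 1.69% for Ighv5-6). Ighv1-58 averaged 2.20% and 2.04%, with 8.54% in extravascular mouse 5, but was lower in the tissue of the other 4 mice, where the means were 0.617% and 2.09%. The Ighv1 family as a whole, the largest V family of the mouse, made up 37.3%, 10.1%, 6.35%, 9.96% and 26.1% of extravascular and 13.5% to 19.5% of intravascular sequences. The Ighv5 family was at 29.9% in extravascular mouse 1 (95% Wilson interval 24.5% to 35.9%), at 2.09% to 7.67% in the other extravascular libraries and at 4.32% to 8.00% in the vessels. The Ighv1 share rests in part on short V regions: with V regions of at least 200 nt its means were 16.3% and 8.11%, a difference of 8.15 points, with the tissue higher in 3 of 5 mice. With all sequences and without mouse 1 the mean differences turned from 1.71 to -2.31 points for the Ighv1 family and from 4.10 to -1.24 points for the Ighv5 family.

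**Figure D2:**
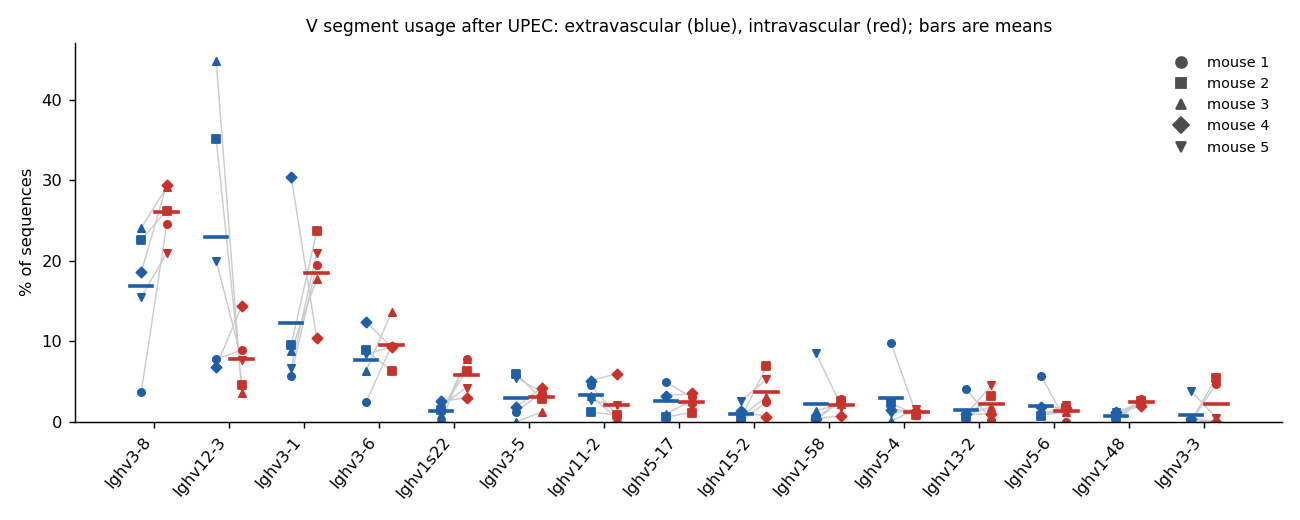
Share of sequences (percent of a library, linear axis) that used each of the 15 most abundant V segments, with extravascular points in blue, intravascular points in red, 1 symbol per mouse, a grey line joining the libraries of a mouse and bars for the means. Ighv12-3 spans 6.86% to 44.8% in the tissue, and Ighv3-8 is lower in the tissue of each of the 5 mice.

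D segments were dominated by Ighd1-1 and by the Ighd2 family, here meaning the D segments and not the constant region Ighd of IgD. Ighd1-1 was used by 34.8% ± 3.11 of extravascular and 31.8% ± 6.05 of intravascular sequences (SD, n = 5 each). Ighd2-3 was used by 15.2%, 44.8%, 23.7%, 6.33% and 26.1% of extravascular and 5.76% to 17.0% of intravascular sequences. It is the D segment of the leading Ighv12-3 clonotypes of mice 2 and 5, and without mouse 2 its means were 17.8% and 13.8%. limma called 0 of 11 D segments (0.0% of those tested) with 1, Ighd3-1, at an unadjusted p below 0.05. Ighd2-1 and Ighd2-2 were lower in the tissue of 5 of 5 mice, 2 of 11 segments (18.2%). Ighd2-1 was at 5.33%, 3.50%, 2.90%, 5.52% and 5.26% in the tissue and 6.13%, 7.49%, 4.48%, 19.0% and 5.84% in the vessels. Ighd2-2 averaged 2.18% ± 0.885 and 3.81% ± 1.53 (SD, n = 5 each). The remaining D segments above 1% on average differed in sign between mice.

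By family, Ighd3 segments made up 8.61%, 1.31%, 4.45%, 14.4% and 3.98% of extravascular and 9.47%, 7.78%, 8.10%, 15.0% and 7.69% of intravascular sequences in mice 1 to 5. Each mouse had less in the tissue, the difference averaged -3.07 percentage points (SD 2.40, n = 5, exact signed-rank test, p = 0.0625, adjusted p = 0.595), and the groups overlapped. This was 1 of 40 measures of a library lower in the tissue of 5 of 5 mice (2.5%), and 1 of 40 was higher in 5 of 5 (2.5%). Counting each clonotype once, Ighd3 was lower in 4 of 5 mice. The Ighd1 family averaged 37.8% and 35.2%, the Ighd2 family 44.8% and 41.7%, and the Ighd4 family 7.71% and 9.18%. The Ighd2 difference of 3.12 points was 0.317 without mouse 2 and -0.863 with each clonotype once. The Ighd4 difference of -1.47 points was 0.869 without mouse 5. No D segment was assigned in 1.82% ± 1.24 of extravascular and 2.54% ± 1.72 of intravascular sequences (SD, n = 5 each).

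J usage was spread over all 4 segments in both compartments. Ighj1 averaged 29.4% ± 9.33 in the tissue and 23.4% ± 3.03 in the vessels (SD, n = 5 each), with the tissue above in 4 mice (p = 0.3125 by the exact signed-rank test). Without mouse 3 the difference was 1.45 instead of 5.97 points. Ighj2 averaged 30.7% and 32.3%. Ighj3 was at 18.4%, 46.2%, 11.3%, 14.3% and 15.1% in the tissue and 21.4%, 16.7%, 20.9%, 25.8% and 19.6% in the vessels. It was thus lower in the tissue of 4 of 5 mice, while mouse 2, whose largest clonotype uses Ighj3, was far higher. Ighj4 averaged 18.8% ± 4.49 and 23.4% ± 4.69 (SD, n = 5 each), lower in 4 of 5 mice (p = 0.1875, exact signed-rank test). Counting each clonotype once, Ighj4 averaged 21.2% and 26.0% and was lower in the tissue of 5 of 5 mice. Of the 37 measures counted in this way, Ighm was also lower in 5 of 5 mice. Ighg2b and the Ighv7 family were higher in 5 of 5, and no other measure had 1 direction in all mice. The pairing of V with J was strongest for Ighv11-2, which used Ighj1 in 98.3% of its 115 extravascular and 95.9% of its 73 intravascular sequences. Ighv12-3 used Ighj1 in 51.0% of 976 and 51.9% of 233 sequences, Ighj3 in 29.0% and 18.0% pooled over mice, and Ighj4 in 0.307% and 2.15%. The largest clonotype of mouse 2 supplied 196 of the 283 extravascular Ighv12-3 sequences with Ighj3. Without it Ighj3 made up 87 of 780, or 11.2%, and Ighj1 63.8%, against 18.0% and 51.9% in the vessels. A clonotype of extravascular mouse 3 that supplied 133 of the 498 sequences with Ighj1 was kept in these values. Counting each clonotype once, Ighv12-3 used Ighj1 in 88 of 157 extravascular and 49 of 84 intravascular clonotypes. It used Ighj3 in 35 and 13, so both directions were those of all sequences and opposite to those without the largest clonotype.

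Junction lengths were alike on average in tissue and vessels. The mean was 41.6 nt ± 0.991 in extravascular and 42.0 nt ± 0.510 in intravascular libraries (SD, n = 5 each; exact signed-rank test, p = 0.625), and the median was 42 nt in each of the 10 libraries. The libraries differed in how many junctions had exactly 42 nt, which was 25.0%, 43.6%, 43.6%, 14.5% and 30.2% of sequences in extravascular mice 1 to 5 and 19.0% to 26.3% in the vessels. Ighv12-3 clonotypes were mostly of this length, 135 of 157 (86.0%) in the tissue and 70 of 84 (83.3%) in the vessels. Ighv12-3 antibodies to phosphatidylcholine are known for a CDR3 of a set length with a glycine at a set place. A glycine codon, GGN on the coding strand, stood at codon 7 of the junction in 128 of these 135 extravascular clonotypes (94.8%) and in 65 of the 70 intravascular ones (92.9%). Among clonotypes of 42 nt with other V segments than Ighv11-2 and Ighv12-3 it stood there in 22.1% of 140 and 11.2% of 242. In the junctions printed above it is the ggt before tac in each of the Ighv12-3 clonotypes.

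Junctions without any N nucleotide were more frequent in the tissue of 4 of 5 mice. They made up 11.4%, 34.2%, 39.1%, 8.37% and 16.8% of extravascular sequences with a D segment in mice 1 to 5, and 8.38%, 7.46%, 7.26%, 13.4% and 4.46% of intravascular ones. Mice 2, 3 and 5 lay above every intravascular library and mouse 4 was the other way round. The means were 22.0% ± 13.8 and 8.20% ± 3.27 (SD, n = 5 each; exact signed-rank test, p = 0.1875). The mean number of N nucleotides was 4.56 ± 1.12 in the tissue and 5.24 ± 0.267 in the vessels (SD, n = 5 each), lower in 3 of 5 mice (p = 0.4375, exact signed-rank test). Without mouse 3 the difference was -0.262 instead of -0.682 nucleotides. Counting each clonotype once, the share without N was 9.51% ± 3.36 and 6.43% ± 1.11 (SD, n = 5 each), higher in the tissue of the same number of mice, 4 of 5 (p = 0.125 by the exact signed-rank test). The mean number of N nucleotides then was 5.50 ± 0.413 and 5.62 ± 0.220. In PBS mice 27.5% ± 19.8 of extravascular and 7.60% ± 3.30 of intravascular sequences had no N (SD, n = 6 each).

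The mean N additions of different V segments lay farther apart than those of the compartments, a description with no test. Ighv11-2 junctions had a mean of 0.597 ± 0.775 N nucleotides in the tissue and 0.175 ± 0.244 in the vessels (SD, n = 5 each). Without mouse 5, the highest of the tissue, the means were 0.257 and 0.0938, and 3 of the intravascular means rest on 3 sequences each. Ighv12-3 junctions had 2.24 ± 1.54 and 2.35 ± 1.01 (SD, n = 5 each). Their difference of -0.113 ranged from -0.770 without mouse 4 to 0.659 without mouse 2, so its sign depends on single mice. All other V segments together had 5.51 ± 0.919 and 5.62 ± 0.123 (SD, n = 5 each). Counting each clonotype of these other segments once, the means were 5.82 ± 0.392 and 5.82 ± 0.219 (SD, n = 5 each; exact signed-rank test, p = 1, difference 0.00677). Extravascular mouse 3 was the lowest for other V segments with 3.98, and its N-free Ighv3-8 clonotype of 138 sequences is among them.

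**Figure D3:**
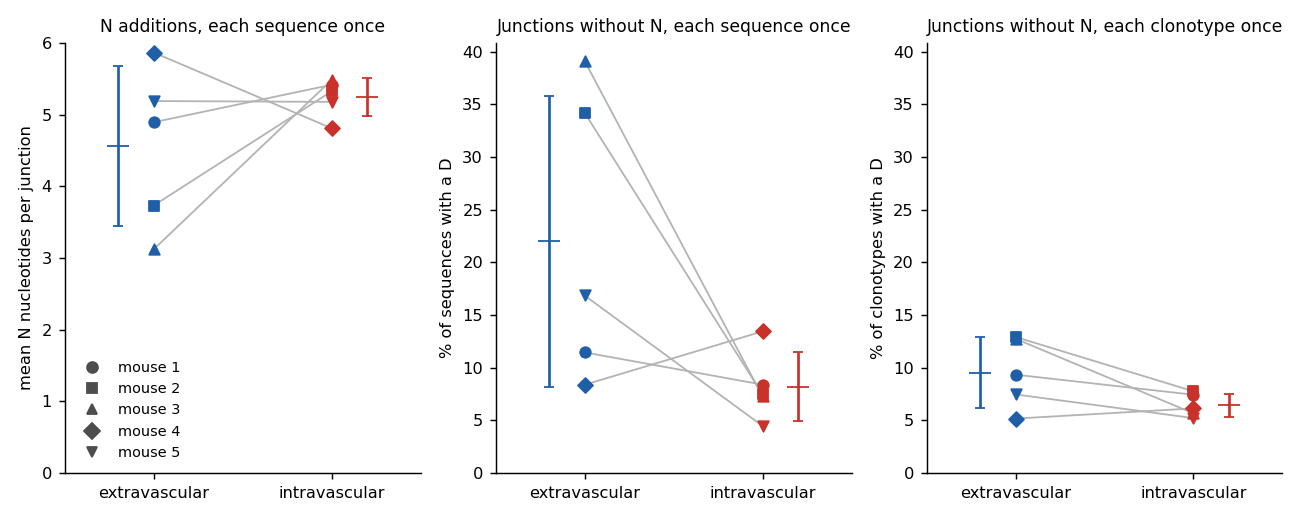
N additions at the junctions of the 10 libraries, with extravascular values in blue, intravascular values in red, lines joining the 2 libraries of a mouse and mean ± SD beside the points. The panels show the mean N nucleotides per sequence, the percentage of sequences without N and the percentage of clonotypes without N, and the gap between the compartments of mice 2 and 3 is smaller in the last panel, where means are 9.51% and 6.43%, than in the middle one.

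Isotypes were read from the 9 read numbers in each sequence identifier. Each identifier is cut short so that Igha is the 1 isotype name left in it, and the other 8 were assigned in alphabetical order, which cannot be checked in the files, so only the Igha values are free of this assumption. Ighm, the constant region of IgM, was found in 66.8%, 94.3%, 93.1%, 86.8% and 73.6% of extravascular and 82.2%, 82.1%, 88.8%, 91.3% and 82.2% of intravascular sequences. Mice 1 and 5 were low in the tissue and mice 2 and 3 high. The means were 82.9% ± 12.2 and 85.3% ± 4.39 (SD, n = 5 each; exact signed-rank test, p = 0.625). Weighted by reads the means were 83.9% and 91.9%, a difference of -8.02 instead of -2.40 points. With each sequence counted once and without mouse 1 the difference was 0.846. Ighd, the constant region of IgD, was found in 30.3%, 4.52%, 4.99%, 12.7% and 7.25% of extravascular and 16.7%, 16.1%, 10.9%, 7.57% and 15.6% of intravascular sequences. It was lower in the tissue of mice 2, 3 and 5 and higher in that of mice 1 and 4. In the sequences of Ighv11-2 and Ighv12-3 it was found in 5 extravascular and 7 intravascular sequences, too few for a comparison, and in sequences of other V segments in 14.8% ± 11.3 and 14.4% ± 3.80 (SD, n = 5 each). Without mouse 1 the means for other V segments were 9.92% and 13.4%, the other direction.

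Igha, the constant region of IgA, stood out in 1 library. It was found in 135 of 855 sequences of extravascular mouse 5, or 15.8%, and in 0.135% to 1.23% of the other extravascular and 0.172% to 0.959% of the intravascular libraries. All switched isotypes together reached 19.2% in extravascular mouse 5, 0.538% to 2.87% in the other extravascular and 0.345% to 2.12% in the intravascular libraries. The means were 5.13% ± 7.90 and 1.30% ± 0.675 (SD, n = 5 each; exact signed-rank test, p = 0.3125), and without mouse 5 the difference was 0.530 percentage points. Ighg2b was the 1 measure of 40 that was higher in the tissue of 5 of 5 mice. It was found in 1, 4, 5, 1 and 5 sequences of the extravascular libraries and 0, 0, 0, 1 and 2 of the intravascular ones, with mean shares of 0.433% ± 0.184 and 0.127% ± 0.230 (SD, n = 5 each; exact signed-rank test, p = 0.0625, and p = 0.0476 without the pairing by an exact Mann-Whitney U test, adjusted p = 0.423). In PBS mice it was higher in the tissue of 2 and lower in that of 2, and the difference from PBS mice did not pass (exact permutation test, p = 0.188; p = 0.0281 with each clonotype once, adjusted p = 0.280). Ighg1 and Ighg2c were found in 8 and 3 of 3630 extravascular sequences and in 0 of 2601 intravascular ones. The Ighg1 sequences came from mice 3, 4 and 5, with 4, 1 and 3. In PBS mice Ighg1 averaged 0.0145% in the tissue and 0.132% in the vessels, higher in the tissue of 1 mouse and lower in that of 2.

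The Igha sequences of extravascular mouse 5 came mainly from 4 clonotypes of the Ighv1 family, which are shown because they hold most of this signal. Capitals again mark N nucleotides.
Ighv1-58 Ighd1-1 Ighj2: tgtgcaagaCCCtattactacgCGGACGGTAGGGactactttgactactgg
Ighv1-64 Ighd2-4 Ighj2: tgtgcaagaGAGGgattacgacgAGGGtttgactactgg
Ighv1-61 Ighd1-1 Ighj4: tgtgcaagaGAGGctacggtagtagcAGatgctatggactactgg
Ighv1-69 Ighd1-3 Ighj4: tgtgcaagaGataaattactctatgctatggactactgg
They held 37, 35, 26 and 15 Igha sequences, with 15, 8, 6 and 1 N nucleotides. The field taken as Ighg2a, a name that cannot be checked, had reads in 9 sequences of the Ighv1-58 clonotype. The same field had reads in 1 sequence of the Ighv1-61 clonotype and 2 of the Ighv1-69 clonotype. None of the 4 had an Ighm sequence, and none was found in the vessels of mouse 5. The first 3 of them are the 3 expanded clonotypes of the Ighv1 family among the 34 of the tissue.

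**Figure D4:**
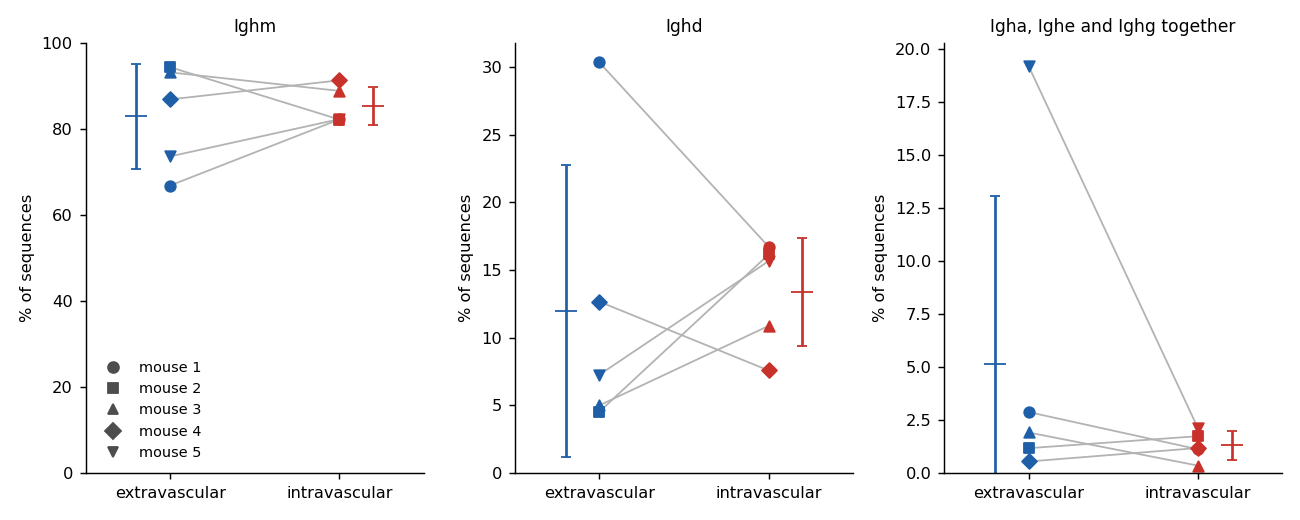
Percentage of sequences with reads of Ighm, of Ighd and of any switched isotype (Igha, Ighe or Ighg) in the 10 libraries, with extravascular values in blue, intravascular values in red, lines joining the libraries of a mouse and mean ± SD beside the points (SD bars are drawn only down to 0). Extravascular mouse 1 is highest for Ighd at 30.3% and extravascular mouse 5 is highest for switched isotypes at 19.2%.

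For 4 of the 40 measures (10.0%) the difference between compartments differed between UPEC and PBS mice at an unadjusted p below 0.05, and none passed after adjustment over the 40 (smallest adjusted p = 0.433). The Ighm share was higher in the tissue of 6 of 6 PBS mice, by 11.6 percentage points on average, and of 2 of 5 UPEC mice, by -2.40 on average (exact permutation test, p = 0.0303). The Ighd share was lower in the tissue of 6 of 6 PBS mice, by -12.8 points on average, and the UPEC mean was -1.44 (exact permutation test, p = 0.0411). The sign of this UPEC mean was not stable, with 1.11 without mouse 2, 3.80 with each clonotype once and -5.20 without mouse 1. Without mouse 1, which has the highest extravascular Ighd share, these tests gave p = 0.0905 for Ighm and p = 0.10 for Ighd (exact permutation tests). Without mouse 5 the Ighm test gave p = 0.0571 (exact permutation test), and without mouse 4 the Ighd test gave p = 0.0905 (exact permutation test).

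Ighj3 was lower in the tissue of 6 of 6 PBS mice, by -15.7 points on average, against 0.179 in UPEC mice (exact permutation test, p = 0.0238). Without mouse 2 the UPEC mean was -7.15 and p = 0.0714 (exact permutation test). The Ighd1 family of D segments differed by -8.78 points in PBS and 2.56 in UPEC mice (exact permutation test, p = 0.0476), with p of 0.0429 to 0.0952 when each UPEC mouse was left out. The UPEC mean then ranged from 1.08 without mouse 5 to 4.15 without mouse 2. Counting each clonotype once, 5 of 37 measures had an unadjusted p below 0.05 in this test and 0 after adjustment, the 5 being Ighm, Ighd, Ighg2b, switched isotypes (exact permutation test, p = 0.0476) and the Ighd1 family (exact permutation test, p = 0.0303). Ighm was then found in 77.3% ± 7.38 of extravascular and 84.7% ± 2.41 of intravascular clonotypes (SD, n = 5 each) and was lower in the tissue of 5 of 5 UPEC mice. Its difference from PBS mice was then -17.1 points (exact permutation test, p = 0.00216), or p = 0.0801 after adjustment over these measures. Ighd was then found in 22.2% ± 8.16 and 18.4% ± 1.89 of clonotypes, and its difference from PBS mice was 15.3 points (exact permutation test, p = 0.00866, adjusted p = 0.160). Without mouse 1 the Ighd means were 18.9% and 18.2% of clonotypes, and the difference from PBS mice was 12.1 points (exact permutation test, p = 0.0286).

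Clonotypes found in more than 1 challenged mouse were few and mostly used the Ighv11-2 and Ighv12-3 segments. Of 2882 clonotypes, 17 were in 2 or more mice, 6 of them with Ighv11-2 and 8 with Ighv12-3, against 31 and 217 of all 2882, and 9 of the 17 had no N nucleotide, against 197 of all 2882. The 3 printed here are the ones found in the extravascular libraries of at least 3 mice, and none has an N nucleotide, so no base is in capitals.
Ighv11-2 Ighd2-5 Ighj1: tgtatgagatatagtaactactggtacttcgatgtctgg
Ighv11-2 Ighd2-1 Ighj1: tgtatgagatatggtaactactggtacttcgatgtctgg
Ighv11-2 Ighd1-1 Ighj1: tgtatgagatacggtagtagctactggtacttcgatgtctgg
The Ighd2-5 clonotype was in all 10 libraries with 66 sequences, namely 3, 2, 13, 34 and 1 in the tissue of mice 1 to 5 and 1, 1, 1, 9 and 1 in the vessels. The Ighd2-1 clonotype was in 9 libraries with 59 sequences, 41 of them in intravascular mouse 4. The Ighd1-1 clonotype was in 7 libraries with 17 sequences. Identical junctions without N can arise independently in different mice, and a clonotype shared by 2 libraries is therefore not shown to be 1 clone.

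Tissue and vessels of the same mouse shared more sequences, on average, than those of different mice. The share of extravascular sequences whose clonotype also occurred in that mouse's vessels was 6.15%, 0.875%, 18.7%, 17.2% and 3.51% in mice 1 to 5, with a mean of 9.29%. Against the intravascular libraries of the 4 other mice it averaged 3.89%, 0.656%, 5.29%, 4.81% and 1.99%, with a mean of 3.33%, so the own mouse was above the average of the others in 5 of 5 mice. It was not always the highest, since mouse 5 shared 7.02% with the vessels of mouse 4 and the 0.875% of mouse 2 equalled its highest value with another mouse. These shares are a description with no test. They rest on few clonotypes, 9, 3, 6, 32 and 6 per mouse. In mouse 3, 133 of the 206 shared sequences belonged to the Ighv12-3 Ighd2-3 Ighj1 clonotype that also led intravascular mouse 1. The same 133 were among the 161 extravascular sequences of mouse 3, or 14.6%, whose clonotype was found in the vessels of mouse 1. In mouse 5 the leading extravascular clonotype, with 50 sequences, was absent from its own intravascular library and had 11 sequences in that of mouse 4.

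Mouse 4 differed from the others in which V segments its shared clonotypes used. Of its 32 shared clonotypes 24 used segments other than Ighv11-2 and Ighv12-3, 13 of them the Ighv3 family, and 21 had a single extravascular sequence. In the other 4 mice 24 clonotypes were shared, 12 with Ighv11-2, 11 with Ighv12-3 and 1 with another segment. The shared clonotypes of mouse 4 include long N additions, which are shown here beside a shared Ighv12-3 clonotype without N.
Mouse 4, Ighv3-1 Ighd2-1 Ighj2: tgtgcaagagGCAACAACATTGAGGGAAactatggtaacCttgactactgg
Mouse 4, Ighv3-6 Ighd1-1 Ighj4: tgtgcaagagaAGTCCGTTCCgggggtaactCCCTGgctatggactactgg
Mouse 3, Ighv12-3 Ighd1-1 Ighj1: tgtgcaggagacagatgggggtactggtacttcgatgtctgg
The Ighv3-1 clonotype had 19 N nucleotides, 9 extravascular and 2 intravascular sequences. The Ighv3-6 clonotype had 15 N nucleotides, 22 extravascular and 8 intravascular sequences. The Ighv12-3 clonotype had 18 extravascular and 7 intravascular sequences. All sequences of the last pair carried Ighm.

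**Figure D5:**
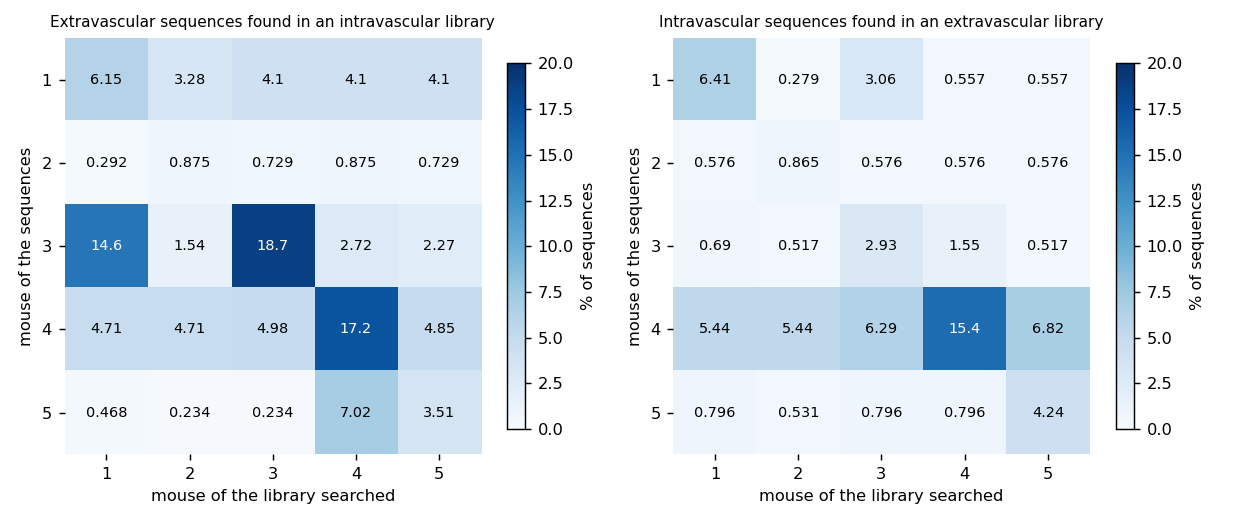
Percentage of the sequences of a library (row, by mouse) whose clonotype was also present in a library of the other compartment (column, by mouse), for extravascular sequences on the left and intravascular sequences on the right. The diagonal is the same mouse, and it holds 17.2% and 15.4% for mouse 4 against at most 6.82% elsewhere in the rows of mouse 4.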

How the data were processed

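The study sorted kidney B cells, reverse transcribed their RNA with barcoded primers for the constant regions and amplified the Igh transcripts with a V primer mix. The authors used QUASR for quality control, joined the read pairs, built a consensus for each barcode, named the isotype from IMGT constant regions, kept sequences with more than 1 read and ran IMGT/V-QUEST on them. The deposited values, none normalized, are nucleotide sequences, segment names, positions and, in the identifier, the reads of each isotype. The genome build is not given in the sources used here, and coordinates are those of the RefSeq annotation of GRCm38.p6 for the same gene symbol.

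The clonotype used the first V and J name without the allele (5.76% of the 6231 sequences had several V names). For the measures of a library, N length is the sum of the N1 and N2 regions of the junction of a sequence with a D segment. Each sequence counted once. Sequence-level sharing used exact matches. V and D segments with 10 or more sequences in 3 or more libraries were tested on log2 shares, with a prior of 0.5 sequences scaled to the library, by limma 3.58.1 in R 4.3.3 with the mouse as a block. All other tests were exact and two-sided, in Python 3.11.15 with numpy 2.4.6, pandas 2.3.3 and scipy 1.17.1, and p values were adjusted by the Benjamini-Hochberg method over 40 measures. The libraries of a mouse are paired because they come from the same mouse. Named V segments were the 15 most abundant, Ighv11-2 and Ighv12-3, and any called by limma. D segments needed a mean share of 1%, and clonotypes were the leading ones, those with at least 10 sequences in both compartments of a mouse together, and those in the tissue of at least 3 mice. The 4 Igha clonotypes were chosen after their values were seen. The members and lists were chosen with earlier results of these data known. The limma test, run on simulated data for the 17 V segments with 4 changed by 3 on the log2 scale, recovered 82.5% of them, and 3 of 50 runs without a change had a call. The simulated libraries were drawn independently of the mouse, and the planted change was larger than the largest difference found, -2.62 for Ighv1s22. The recovery therefore does not measure the power for the differences in these data.

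Alternatives were weighting by reads, each clonotype once, at least 3 reads, amino acid junctions, no pairing, other priors, filters and scaling, and each mouse left out. A minimum V-REGION of 200 nt and the chance of drawing 1 clonotype 2 times were added after the data were seen, as was leaving out each mouse with each clonotype counted once, for single segments and for Ighd and N by V segment. Reads and sequences are counts of amplified molecules, and no tissue or cell number was available to scale them.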

Additional observations from a re-analysis of the deposited data

Results flagged for a closer look

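In 48 groups of libraries examined, 6 had a library far from the others, where chance gives about 2.4. Extravascular mouse 5 had 19.2% switched sequences against 0.538% to 2.87% in the other extravascular libraries. Extravascular mouse 1 had an Ighv5 family share of 29.9% against 2.09% to 7.67%. Extravascular mouse 2 had an Ighj3 share of 46.2% against 11.3% to 18.4%. Intravascular mouse 4 stood apart from the other intravascular libraries in 3 measures, the Ighd3 family of D segments (15.0% against 7.69% to 9.47%), the most frequent clonotype (10.4% against 1.15% to 2.93%) and the share in clonotypes of 20 or more sequences (37.1% against 0% in each of the others).

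The difference between tissue and vessels differed between UPEC and PBS mice in 4 of 40 measures before adjustment (exact permutation tests). By exact permutation tests, the UPEC difference minus the PBS difference was -14.0 percentage points for Ighm (p = 0.0303), 11.3 for the constant region Ighd (p = 0.0411), 15.9 for Ighj3 (p = 0.0238) and 11.3 for the Ighd1 family of D segments (p = 0.0476). None of the 4 passed after adjustment over the 40 measures, with an adjusted p of 0.433 for each.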

How the results depend on the processing

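The signed-rank test could not reach the threshold with 5 mice, so for the measures of a library the alternatives bear on direction. limma could, and called 0 V segments under each alternative run. Of 296 alternative values for 33 results, 276 kept the direction and the side of the threshold and 18 had the other sign, all of differences that did not pass a test. The Ighd share difference was 1.80 percentage points weighted by reads, 3.80 with each clonotype once and 1.89 with at least 3 reads. With each clonotype once the difference was 0.0467 for Ighj2, -0.826 for Ighj3 and -0.863 for the Ighd2 family, and the UPEC difference in mean N minus the PBS one was -0.114 nt. With V regions of at least 200 nt the difference in junction length was 0.184 nt and that of the Ighv1 family 8.15 points. Weighted by reads the Ighm difference was -8.02 points. Without the pairing (no replicate block) the Ighv11-2 plus Ighv12-3 difference of 16.3 points passed at an unadjusted p of 0.0317 (exact Mann-Whitney U test). By the same exact Mann-Whitney U test, again without pairing or adjustment, p was 0.0476 for Ighg2b (adjusted p = 0.423) and 0.0317 for Ighv3-8. The exact Mann-Whitney U test gave p = 0.00794, its smallest possible value with 5 libraries in each group, for Ighv1s22 and Ighv1-48 each. For Ighv1-48, which met the filter only with its intravascular counts included, this supports no conclusion. limma called 0 V and 0 D segments with and without the block, and the D segments at an unadjusted p below 0.05 went from 1 to 0 without it. Without a filter limma called 1 of 22 D segments. With each mouse left out in turn, the difference ranged from -6.04 to 0.846 points for Ighm, -5.20 to 1.11 for Ighd, -2.31 to 5.21 for the Ighv1 family, -1.24 to 6.11 for the Ighv5 family, -3.97 to 1.81 for Ighj2, -7.15 to 3.11 for Ighj3, -2.83 to 0.869 for the Ighd4 family and -1.65 to 0.116 for sequences without a D. The libraries of 244 to 1102 sequences limit what can be seen of rare segments and isotypes.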
